A study of Arabidopsis thaliana with 24 samples.

Results

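The RNA of 42 Arabidopsis thaliana genes that are targets of microRNAs (miRNAs) or of trans-acting small interfering RNAs (tasiRNAs) was followed in dry mature seeds and unopened flower buds. The genes were taken by identifier from a fixed list of auxin response factor (ARF), TIR1/AFB, HD-ZIP III, AP2-like, CUC/NAC1, HAM, TCP and GRF genes with PHO2, CSD1 and CSD2. They are 42 of the 33243 genes counted and fall into 12 families by the small RNA that targets them. The rule uses identifiers and no measured values, but the list was drawn up with earlier results of these data known.

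Plants were Columbia (Col-0) wild type (WT), or Col-0 carrying a T-DNA insertion in URT1 (urt1-1), in HESO1 (heso1-4) or in both (heso1-4 urt1-1). Each genotype and tissue had 3 biological replicates by the labels, which gives 24 libraries, and each replicate held tissue of at least 5 plants. Buds were taken 2 weeks and seeds 8 weeks after flowering began. Seed and bud RNA came from different extraction protocols, and the effect of tissue cannot be told apart from that of the protocol.

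URT1 and HESO1 are terminal uridylyltransferases, enzymes that add uridines to RNA 3′ ends. HESO1 is known for tailing miRNAs that lack their protective methyl group and the 5′ fragments left when a miRNA cuts its target, and URT1 for tailing messenger RNAs and, beside HESO1, miRNAs. Plant miRNAs pair almost completely with their targets, which are then cut within the paired site or held back from translation. TasiRNAs act in the same way and are made from a transcript that a miRNA cuts first.

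Guides are shown by family because the members of a family share a miRNA or its variants. Sequences are RefSeq entries of the TAIR10.1 assembly, and capitals mark the seed, bases 2 to 8 from the 5′ end.
ath-miR160a-5p: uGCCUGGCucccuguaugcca
ath-miR167a-5p: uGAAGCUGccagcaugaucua
ath-miR393a-5p: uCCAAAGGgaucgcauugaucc
ath-miR165a-3p: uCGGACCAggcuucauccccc
ath-miR172c: aGAAUCUUgaugaugcugcag
ath-miR164a: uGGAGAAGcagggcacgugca
ath-miR171a-3p: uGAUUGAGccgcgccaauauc
ath-miR319c: uUGGACUGaagggagcuccuu
ath-miR396a-5p: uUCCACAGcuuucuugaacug
ath-miR399f: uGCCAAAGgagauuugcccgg
ath-miR398a-3p: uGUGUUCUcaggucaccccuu
The guides shown are 1 per miRNA family, and variants of a family can differ from them by a base or more. Among these variants, miR167c-5p, miR171b-3p and miR171c-3p have other seed bases than the guides shown. The total RNA libraries do not measure mature miRNAs.

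The target sites are shown for 3 families whose members carry nearly the same site and had unlike values between the tissues. The part of the sites in these values was not tested. Capitals mark bases that form a Watson-Crick pair with the best-scoring family guide. For miR172 the sites were read at chr4:17403019-17403039 (AP2, plus strand), chr2:12226233-12226253 (TOE1, minus), chr5:24210889-24210909 (TOE2, plus), chr5:26802175-26802195 (TOE3, minus), chr3:20373774-20373794 (SMZ, minus) and chr2:16389066-16389086 (SNZ, minus).
AP2: CUGCAGCAUCAUCAgGAUUCU
TOE1: CaGCAGCAUCAUCAgGAUUCU
TOE2: AUGCAGCAUCAUCAgGAUUCU
TOE3: ugGCAGCAUCAUCAgGAUUCU
SMZ: uUGCAGCAUCAUCAgGAUUCC
SNZ: uUGuAGCAUCAUCAgGAUUCC
For miR396 they were read at chr2:9729944-9729965 (GRF1, plus), chr2:15271745-15271766 (GRF3, minus) and chr4:12538649-12538670 (GRF8, plus), and the sites of GRF2 and GRF7 have the same letters as those of GRF1 and GRF8.
GRF1: ucGUUCAAGAAAGCcUGUGGAA
GRF3: CcGUUCAAGAAAGCcUGUGGAA
GRF8: ucGUUCAAGAAAGCaUGUGGAA
For miR393 they were read at chr3:23273727-23273748 (TIR1, minus), chr4:1405341-1405362 (AFB1, minus) and chr3:9870237-9870258 (AFB2, plus), and the site of AFB3 has the letters of AFB2.
TIR1: GagaCAAUGCGAUCCCUUUGGA
AFB1: GagaCcAUGCGAUCCCUUUGGA
AFB2: GaAaCAAUGCGAUCCCUUUGGA

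A pairing score was computed in which a mismatch costs 1, a G:U pair 0.5 and an unpaired target base 2, with mismatches and G:U pairs doubled at guide bases 2 to 13. With the best-scoring guide of its family, a site scored 4 or less in 40 of the 42 members, and the exceptions were CSD1 at 5.0 and CSD2 at 6.0. For ARF6 and ARF8 that guide was miR167c-5p, at 3.5 and 4.0, and the median with the miR167a-5p shown was 4.5. For ARF2, ARF3 and ARF4 the guide was the stretch of 21 bases in the TAS3 transcript that paired best with them, so their scores describe that choice. The sites of HAM1, HAM2 and HAM3 paired with miR171a over all 21 bases. In the longest annotated transcript 38 sites lay in coding sequence, those of PHO2 and CSD1 in the 5′ UTR and those of TOE1 and TOE2 in the 3′ UTR. Only that transcript was scanned, and the choice of transcript may matter for these placements, as for TOE1 and TOE2. The 5 HD-ZIP III sites and that of CSD1 crossed a splice junction. None of 15 relatives in the same protein families that are not classed as targets scored 4 or less, and HAM4 came nearest at 4.5. Guides were kept by their pairing with the members, and relatives were listed as genes not classed as targets. The contrast of members and relatives therefore describes these choices and is no test. Over 31346 genes the share with a site at 4 or less ranged from 0.00638% for miR398 to 0.0798% for miR396, and a match describes letters, not cleavage.

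The deposited counts took in whole gene spans, introns included. Libraries held 19304121 to 38853305 counts in seeds and 23787015 to 39797391 in buds, and the 42 members held 0.0809% to 0.150% and 0.191% to 0.248% of them. URT1 read 138 to 147 counts per 1000000 library counts (CPM) in WT seeds against 3.18 to 5.06 CPM in seed libraries with urt1-1, and 32.6 to 40.4 CPM against 1.39 to 2.13 CPM in buds. HESO1 went against its label. It read 0.508 to 0.776 CPM in WT seeds but 234 to 249 CPM in seed libraries labelled heso1-4 and 62.3 to 69.6 CPM in those labelled heso1-4 urt1-1. In buds it read 10.1 to 10.8, 567 to 640 and 34.6 to 63.2 CPM, so loss of HESO1 is not shown by its RNA and these groups are called by their labels. Summed floral organ identity genes (AP1, AP3, PI, AG, SEP3) read 309 to 539 CPM in buds and 0.706 to 4.10 CPM in seeds. Summed storage and embryo genes (CRA1, SESA1, OLEO1, EM1, EM6) read 38704 to 72579 CPM in seeds and 1.69 to 4.48 CPM in buds.

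The first comparison asked how the targets differed between the tissues in WT. In dry seeds, GRF8, PHO2 and the floral repressor SMZ stood far above their level in buds, while AP2, CUC1, CUC2, ATHB15, TOE3 and HAM3 were low. SNZ, another floral repressor, was low in both tissues but higher in seeds. Of 42 members, 37 passed an adjusted p of 0.05 in edgeR's quasi-likelihood test, 9 higher and 28 lower in seeds. Over all 23557 genes tested 80.6% passed, 32.9% higher and 47.7% lower, so the number of members that differed is near the background. Seed and bud libraries did not overlap for 37 members, beside 83.1% of genes. The members' median log2 fold change of seeds over buds was -1.47, beside -0.56 for all genes. AP2, CUC1, CUC2, NAC1 and HAM3 had at most 16 counts in any seed library and passed the filter through their bud counts. They could then only be called lower, and all but NAC1 were. The split of directions and the members' median therefore rest in part on them. Fewer cells of a type and less RNA per cell cannot be told apart in such samples. Log2 fold changes below are WT seeds over WT buds, given ± SE, with 3 libraries per tissue.

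**Figure D1:**
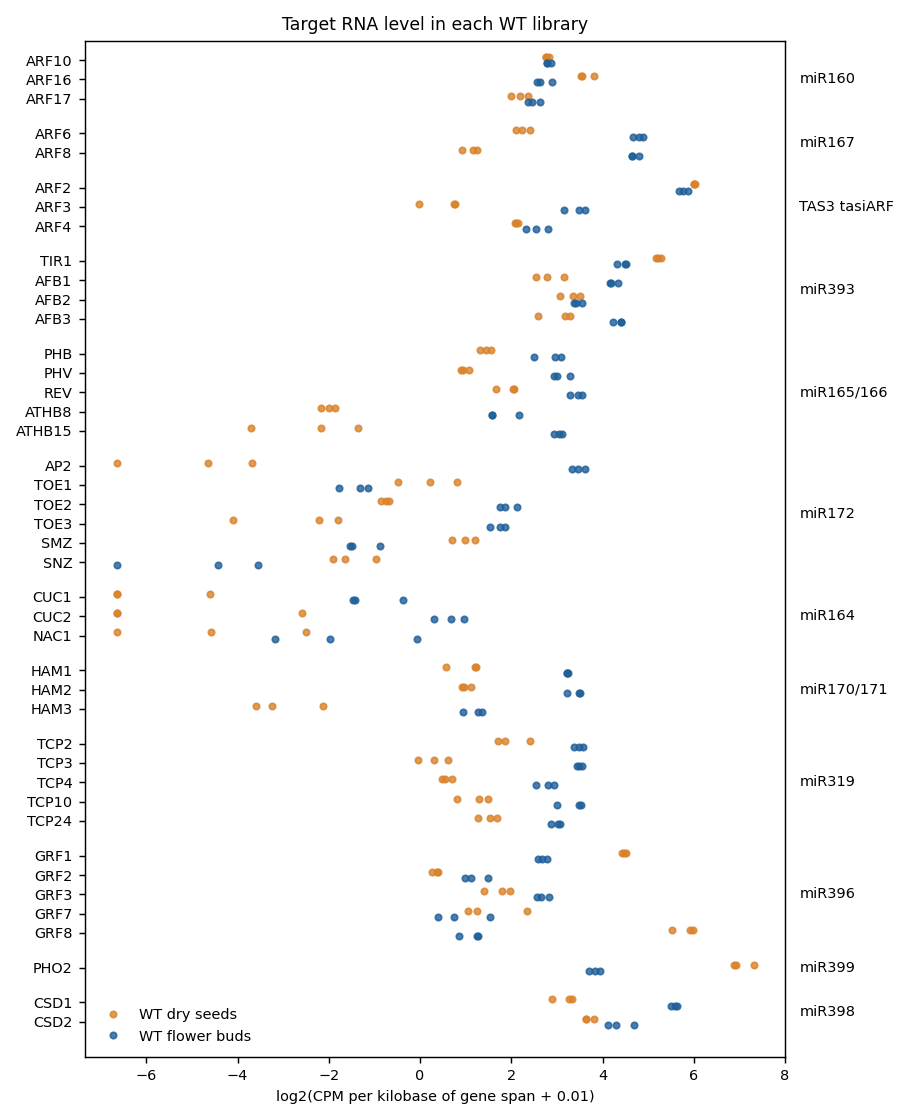
Level of each member in each WT library (log2 of CPM per kilobase of gene span plus a small constant; orange points, dry seeds; blue points, flower buds; 3 libraries each), with members grouped by family. PHO2 is the highest point set in seeds, and points at the left edge are libraries without counts.

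Per kilobase of gene span, PHO2 was the highest member in WT seeds at 133 ± 22.2 CPM per kb (SD, n = 3), followed by ARF2 at 64.7, GRF8 at 56.5 and TIR1 at 37.5 CPM per kb. In WT buds ARF2 led at 54.5 CPM per kb, followed by CSD1 at 47.6, ARF6 at 27.6 and ARF8 at 26.0 CPM per kb. GRF8 and PHO2 were thus among the leading members in seeds and not in buds.

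Among auxin receptors and response factors, the families split. ARF10, ARF16 and ARF17, repressing ARFs targeted by miR160, ranged from -0.29 to 0.93. ARF16 (AT4G30080, chr4:14703065-14706354) read 38.5, 38.0 and 46.0 CPM in WT seeds and 19.5, 24.5 and 20.2 CPM in buds. Its groups did not overlap and it was 0.93 ± 0.12 higher in seeds (edgeR adjusted p = 3.47e-07). ARF10 had nearly the same level in both tissues, with 20.7, 20.7 and 21.8 CPM in seeds and 21.0, 21.0 and 22.3 CPM in buds, a log2 fold change of -0.03 ± 0.13. ARF17 was at -0.29 ± 0.15 and did not pass (edgeR adjusted p = 0.0831), but it passed at -0.39 without WT seed replicate 1 (edgeR adjusted p = 0.0464).

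ARF6 and ARF8, activating ARFs needed for stamen and gynoecium maturation and targeted by miR167, were both lower in seeds. ARF6 (AT1G30330, chr1:10685822-10690988) read 22.2, 27.5 and 24.1 CPM in seeds and 145, 153 and 130 CPM in buds. The groups lay far apart, at -2.53 ± 0.13 for ARF6 (edgeR adjusted p = 2.37e-13) and -3.60 ± 0.16 for ARF8 (edgeR adjusted p = 4.82e-14).

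The targets of TAS3 tasiRNAs are ARF2, a repressor that limits organ and seed size, and ARF3 (ETTIN) and ARF4, which shape the gynoecium and the lower side of lateral organs. ARF2 (AT5G62000, chr5:24910191-24915395) read 336, 334 and 340 CPM in seeds and 264, 306 and 281 CPM in buds, 0.25 ± 0.10 higher in seeds (edgeR adjusted p = 0.0359). The groups did not overlap, but the call was lost in 11 of 14 other settings, 5 of them leaving out 1 library (0.20 to 0.24; edgeR adjusted p from 0.0778 to 0.136). ARF3 was lower in seeds at -2.90 ± 0.19 and ARF4 at -0.46 ± 0.13. ARF2 therefore held 91.8% ± 0.733 (SD, n = 3) of the family's summed CPM per kb in seeds and 76.6% ± 2.57 in buds, and ARF3 2.05% and 15.1%.

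The miR393 targets are TIR1, AFB1, AFB2 and AFB3, F-box proteins that bind auxin and mark Aux/IAA repressors for destruction. TIR1 (AT3G62980, chr3:23273065-23276630) read 132, 139 and 129 CPM in seeds and 71.5, 81.2 and 80.5 CPM in buds. It was higher in every seed library, by 0.78 ± 0.11 (edgeR adjusted p = 1.32e-06). AFB1 was lower at -1.37 ± 0.22 and AFB3 at -1.30 ± 0.18, while AFB2 was at -0.13 ± 0.13 and did not pass. TIR1 held 59.8% ± 3.92 of the receptors' summed CPM per kb in seeds and 30.4% ± 0.815 in buds, where AFB3 held 28.4% and AFB1 26.1%. AFB2 and AFB3 carry the same site letters, and the difference between their values was not tested.

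**Figure D2:**
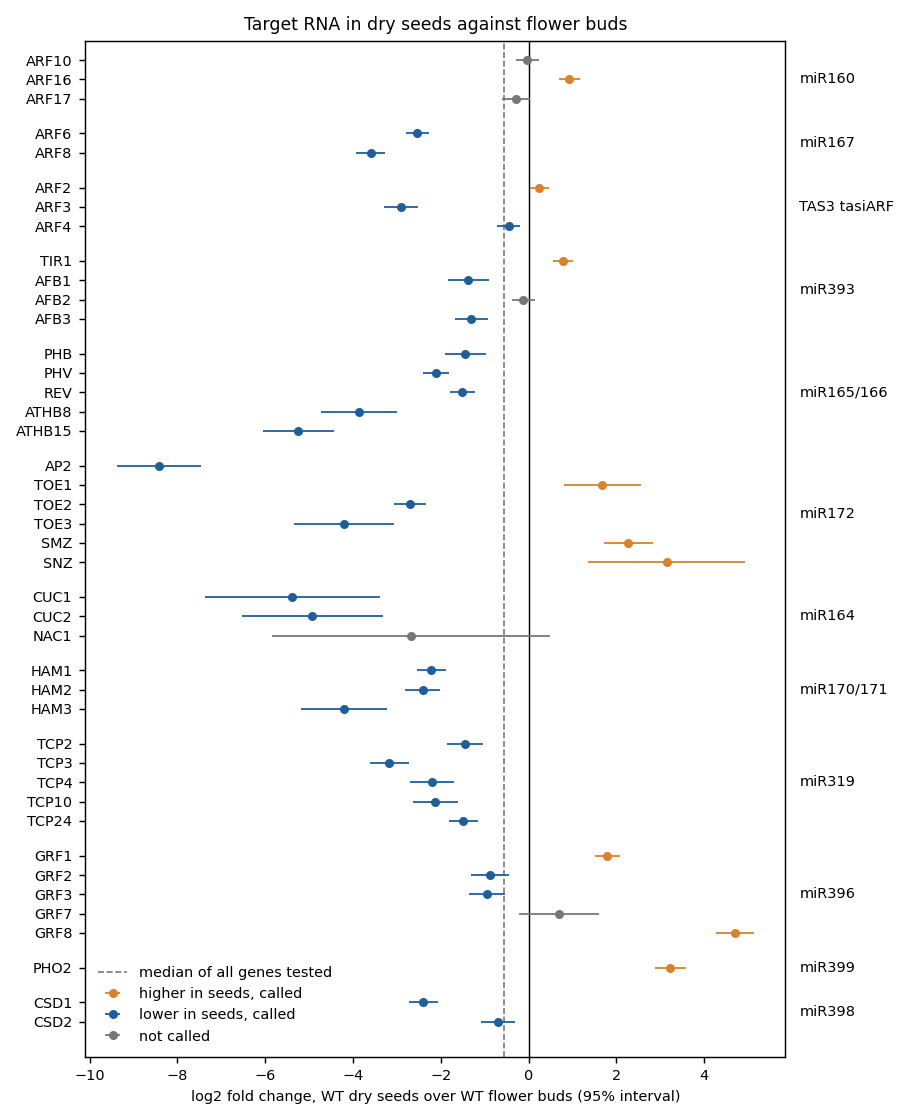
Log2 fold change of WT dry seeds over WT flower buds for each member with its 95% interval, orange where higher in seeds and called, blue where lower and called, grey where not called; the dashed line is the median of all genes tested. GRF8 lies farthest right and AP2 farthest left, and the miR172 and miR396 families hold members on both sides of 0.

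The HD-ZIP III transcription factors PHB, PHV, REV, ATHB8 and ATHB15, which set the upper side of organs, the vasculature and the shoot meristem under miR165 and miR166, were all lower in seeds. REV (AT5G60690, chr5:24396981-24402195) read 21.6, 21.5 and 16.4 CPM in seeds and 57.3, 51.2 and 61.3 CPM in buds, at -1.51 ± 0.14. ATHB15 (AT1G52150, chr1:19409688-19414764) read 1.92, 1.08 and 0.339 CPM in seeds and 41.6, 38.8 and 43.9 CPM in buds, at -5.24 ± 0.39 (edgeR adjusted p = 1.28e-10). Its seed level was low in all 3 libraries, with 6 to 30 counts each. ATHB8 followed at -3.86 ± 0.41, PHV at -2.11 ± 0.14 and PHB at -1.44 ± 0.22. ATHB15 made up 2.35% of the family's CPM per kb in seeds and 21.4% in buds, and REV 42.5% and 28.4%.

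The 6 miR172 targets are AP2-like factors. AP2 sets floral organ identity, and TOE1, TOE2, TOE3, SMZ and SNZ hold back flowering. AP2 (AT4G36920, chr4:17400610-17403469) had 5 counts in the 3 WT seed libraries together and 4126 in buds. It read 0.192, 0.0862 and 0 CPM in seeds and 35.0, 28.8 and 31.7 CPM in buds. The ratio of 363-fold has an exact counting interval of 155 to 1118, which covers counting error only. TOE3 (AT5G67180, chr5:26801949-26804271) read 0.641, 0.474 and 0.113 CPM in seeds and 8.38, 7.83 and 6.68 CPM in buds, at -4.22 ± 0.55. TOE2 lay between at -2.70 ± 0.18.

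The other 3 miR172 targets were higher in seeds. SMZ (AT3G54990, chr3:20373718-20376522) read 4.55, 6.42 and 5.53 CPM in seeds and 0.938, 0.969 and 1.51 CPM in buds, at 2.27 ± 0.27 (edgeR adjusted p = 1.2e-07). TOE1 (AT2G28550, chr2:12225656-12228624) read 5.19, 3.45 and 2.09 CPM in seeds and 1.31, 0.830 and 1.17 CPM in buds, at 1.68 ± 0.42 (edgeR adjusted p = 0.00114). SNZ (AT2G39250, chr2:16388691-16391176) read 0.641, 0.776 and 1.24 CPM in seeds and 0.188, 0 and 0.0900 CPM in buds, on 50 counts against 13. No seed library of these genes overlapped a bud library, and for SNZ the ratio of 8.75 has a counting interval of 4.68 to 17.6. SMZ held 45.9% ± 9.12 and TOE1 27.4% ± 9.94 of the family's CPM per kb in seeds, against 2.15% and 1.95% in buds. There AP2 held 58.5% ± 3.28, TOE2 19.9% and TOE3 17.3%. SMZ and AP2, whose sites are nearly the same, had opposite directions, and the part of miR172 in this was not tested.

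**Figure D3:**
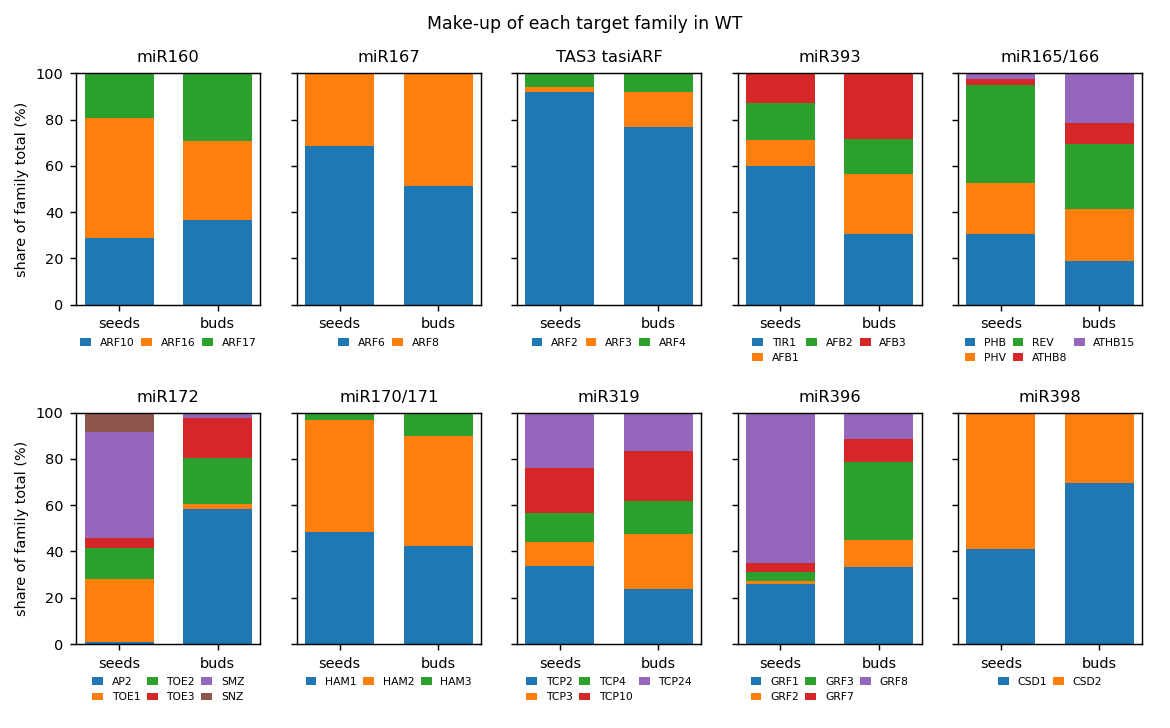
Share of each member in its family's summed CPM per kilobase of gene span (%; means of 3 WT libraries; 1 panel per family with at least 2 members and counts in every library). GRF8 takes up most of the miR396 bar and SMZ and TOE1 most of the miR172 bar in seeds, and AP2 most of the miR172 bar in buds.

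The miR164 targets CUC1 and CUC2, which mark organ boundaries, and NAC1, known from auxin signalling in roots, had few counts in seeds. CUC1 (AT3G15170, chr3:5109782-5111608) had 1 count in the WT seed libraries and 117 in buds, read as 0, 0 and 0.0565 CPM against 0.646, 0.664 and 1.39 CPM. CUC2 (AT5G53950, chr5:21901704-21903854) had 6 counts against 444, read as 0, 0 and 0.339 CPM against 3.40, 2.63 and 4.18 CPM. Both were lower in seeds, with counting intervals of the ratio from 9.05 to 2049 for CUC1 and from 14.8 to 89.1 for CUC2. NAC1 was at -2.68 ± 1.52 and did not pass (edgeR adjusted p = 0.11), but it passed at -3.11 with the replicate number as a block (edgeR adjusted p = 0.0203). It had 10 counts in the WT seed libraries and 158 in buds, a ratio of 6.95 with a counting interval of 3.68 to 14.8, and its bud libraries ranged from 0.270 to 2.54 CPM.

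HAM1, HAM2 and HAM3, GRAS factors that maintain shoot meristems and are targeted by miR170 and miR171, were all lower in seeds. HAM2 (AT3G60630, chr3:22410240-22412663) read 4.55, 4.70 and 5.19 CPM in seeds and 22.7, 27.4 and 27.0 CPM in buds, at -2.41 ± 0.19. HAM3 (AT4G00150, chr4:57140-59495) read 0.513, 0.172 and 0.226 CPM in seeds and 4.52, 5.65 and 5.98 CPM in buds, at -4.20 ± 0.47, on 16 counts against 687 (counting interval of the ratio 11.5 to 33.2). HAM1 was at -2.21, so HAM3 had the lowest value. All 3 sites have the same 21 letters, and differences between the members were not tested.

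The miR319 targets TCP2, TCP3, TCP4, TCP10 and TCP24, factors that end cell division in leaves and petals, were all lower in seeds, from -1.45 for TCP2 to -3.17 for TCP3. TCP2 (AT4G18390, chr4:10162922-10165583) read 8.72, 14.1 and 9.71 CPM in seeds and 31.8, 29.9 and 27.5 CPM in buds. All 5 genes had groups that did not overlap.

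The growth-regulating factors under miR396 promote cell proliferation together with GIF coactivators. GRF8 (AT4G24150, chr4:12535972-12539576) read 218, 228 and 165 CPM in seeds and 8.51, 8.69 and 6.43 CPM in buds, 4.69 ± 0.21 higher in seeds (edgeR adjusted p = 4.39e-14). GRF1 (AT2G22840, chr2:9728480-9731301) read 62.8, 64.7 and 60.4 CPM in seeds and 16.9, 17.9 and 19.4 CPM in buds, 1.79 ± 0.13 higher. Every seed library of both genes lay above every bud library. GRF2 was lower at -0.88 and GRF3 at -0.95, and GRF7 was at 0.69 ± 0.43 and did not pass (edgeR adjusted p = 0.148), but it passed at 1.09 without WT bud replicate 3 (edgeR adjusted p = 0.0463). GRF8 held 65.1% ± 4.20 of the family's CPM per kb in seeds and 11.4% ± 2.31 in buds, while GRF3 held 3.84% and 33.4%. GRF1 and GRF2 carry the same site letters, as do GRF7 and GRF8.

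PHO2, a ubiquitin-conjugating enzyme that restrains phosphate uptake and is targeted by miR399, had the second highest log2 fold change. PHO2 (AT2G33770, chr2:14277558-14283113) read 679, 660 and 882 CPM in seeds and 78.8, 85.4 and 72.7 CPM in buds, 3.23 ± 0.17 higher in seeds (edgeR adjusted p = 6.33e-13). The copper/zinc superoxide dismutases under miR398 were lower in seeds. CSD1 (AT1G08830, chr1:2827060-2829315), the cytosolic enzyme, read 22.8, 21.6 and 16.8 CPM in seeds and 108, 103 and 111 CPM in buds, at -2.39 ± 0.16. CSD2, the plastid enzyme, was at -0.69 ± 0.18, and CSD1 held 41.0% of the pair's CPM per kb in seeds and 69.6% in buds.

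Other genes of the same pathways were read from fixed lists. Over all genes tested 80.6% passed between the WT tissues, 32.9% higher and 47.7% lower in seeds. The numbers that passed in the lists below are near that background. Of 15 relatives not classed as targets, 12 passed, 4 higher and 8 lower in seeds, with a median of -0.76. ARF1 was at 1.70 and CSD3, the peroxisomal superoxide dismutase, at 2.08, whereas ANT was at -10.12 and CUC3 at -8.46. Of 7 further targets of the same miRNAs, 6 passed, with GRF9 at 3.76 ± 0.17 and the copper chaperone gene CCS at 1.20 higher, and NAC100 at -8.18 and GRF4 at -3.27 among the 4 lower. In the WT seed libraries NAC100 had 0, 2 and 2 counts and GRF4 28, 2 and 2, so the size of both values is uncertain. ANT and CUC3 had more negative values than NAC100, and how far the size of these rests on low seed counts was not tested. Of 13 small RNA pathway genes, 11 passed. SE, HST and DRB4 were higher, at 0.96, 0.85 and 0.66, and 8 were lower, among them AGO7, the Argonaute that starts TAS3 tasiRNA production, at -3.46 and RDR6 at -2.41. AGO1, the main miRNA effector, was at 0.04 and did not pass.

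The second comparison asked whether the insertions changed the targets. No member passed an adjusted p of 0.05 in edgeR in any of 15 genotype comparisons, nor with DESeq2 among the members to which it gave an adjusted p. In seeds 37 members were tested. AP2, CUC1, CUC2, NAC1 and HAM3 were left out for low counts, with at most 16 in any seed library. The comparisons with WT share its libraries, so their values are given side by side and no agreement is drawn from them.

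In seeds, 0.0279% of all 17939 genes passed for urt1-1, 0.0111% for libraries labelled heso1-4 and 0.0557% for libraries labelled heso1-4 urt1-1. With no adjustment, 2, 0 and 4 of 37 members had p under 0.05, beside 6.9%, 3.76% and 8.62% of all genes. Members' medians were 0.07, 0.04 and 0.05 on the log2 scale, beside -0.01, 0.00 and -0.01 for all genes. DESeq2 gave an adjusted p for 17, 42 and 33 members, of which 0 passed. With the replicate number as a block, 0.502% of all genes passed for urt1-1 and 0 members.

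In buds, 0.00876% of all 22841 genes passed for urt1-1, 0.00876% for libraries labelled heso1-4 and 0.0131% for libraries labelled heso1-4 urt1-1. With no adjustment, 2, 2 and 0 of 42 members had p under 0.05, beside 2.6%, 2.73% and 2.83% of all genes. Medians were -0.05, -0.02 and -0.03, beside 0.01, 0.00 and 0.00 for all genes. DESeq2 gave an adjusted p for 42, 42 and 30 members and passed 0.

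The intervals say how large a change these libraries would still allow. In seeds 30, 33 and 31 of the 37 members had a 95% interval within a 2-fold change of WT in the 3 mutant groups, in the order above, and in buds 38, 37 and 38 of 42. All 3 intervals were within 2-fold for 30 members in seeds and 37 in buds. The exceptions were ATHB15, ATHB8, GRF7, SMZ, SNZ, TOE1 and TOE3 in seeds and CUC1, CUC2, GRF7, NAC1 and SNZ in buds. The widest interval was that of NAC1 in bud libraries labelled heso1-4, from -4.16 to 2.21.

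**Figure D4:**
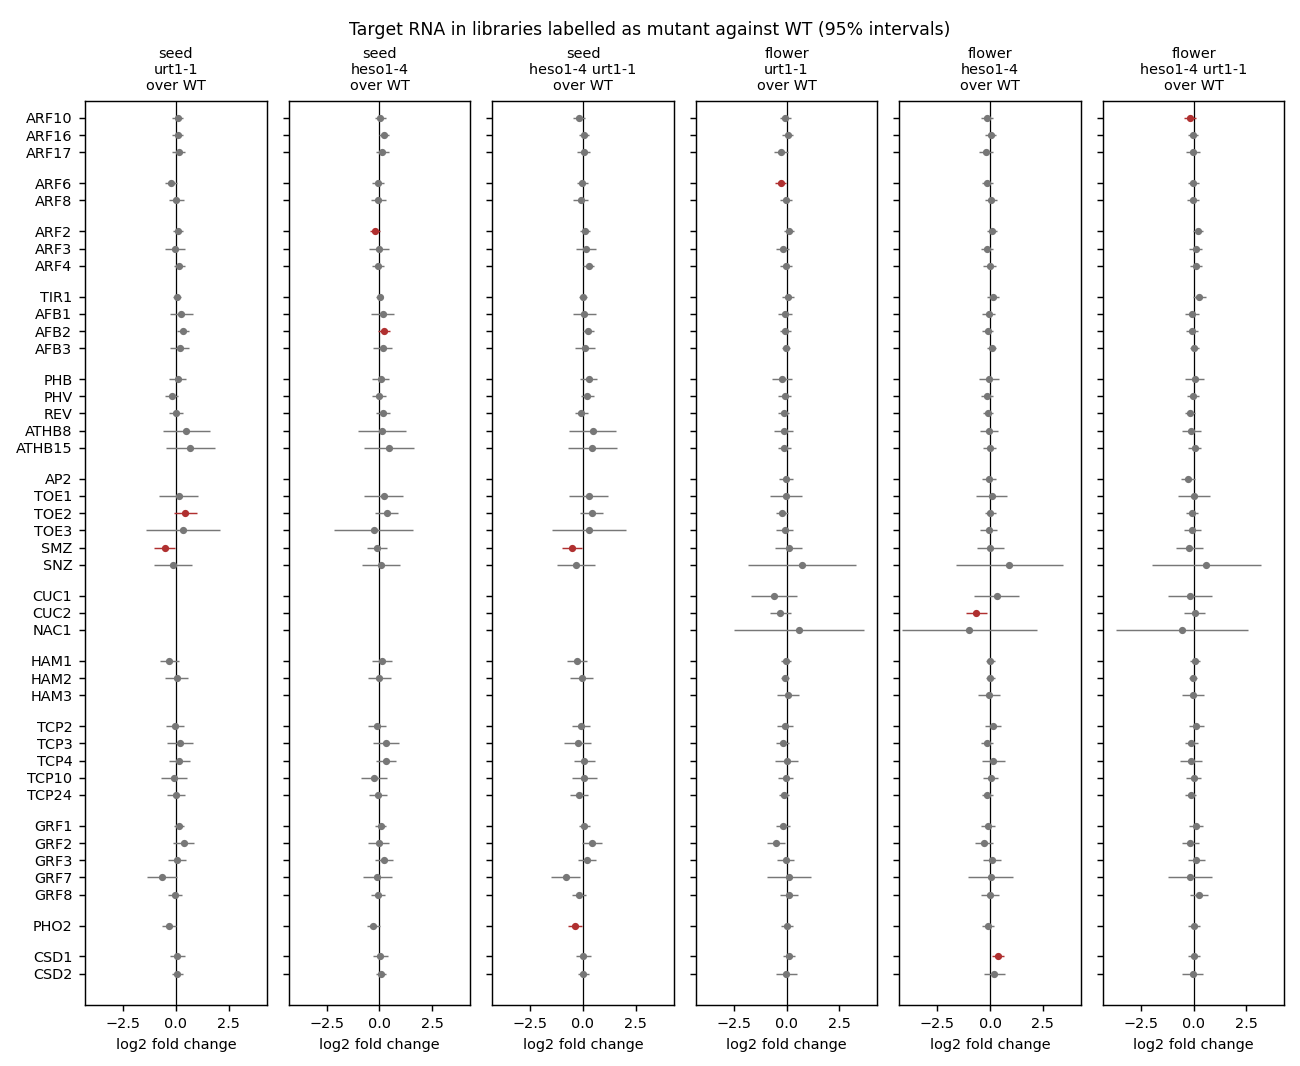
Log2 fold change of each member over WT with its 95% interval in the 6 comparisons of seeds and flower buds; red marks the members described with values in every library for that comparison. Points lie around 0 in each panel, and the wide intervals belong to members of low count such as NAC1, SNZ and CUC1.

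GRF8 in both tissues, AP2 in buds, and TIR1 and GRF1 in seeds had mutant levels around those of WT. GRF8 read 160 to 226 CPM in the 9 seed libraries labelled as mutant and 165 to 228 CPM in WT seeds, and 6.52 to 10.9 CPM beside 6.43 to 8.69 CPM in buds. AP2 read 23.7 to 35.3 CPM in mutant buds and 28.8 to 35.0 CPM in WT, TIR1 129 to 142 CPM in mutant seeds and 129 to 139 CPM in WT, and GRF1 53.0 to 76.9 CPM and 60.4 to 64.7 CPM. In each of these cases the mutant range overlapped the WT range, as a range of 9 libraries pooled over the mutant groups readily does. PHO2 in seeds lay mostly lower, with a mutant median of 580 CPM (508 to 708 CPM) beside 660 to 882 CPM in WT. SMZ in seeds had a mutant median of 4.29 CPM (2.56 to 5.19 CPM) beside 4.55 to 6.42 CPM in WT. TIR1 in buds lay mostly higher, with a mutant median of 86.6 CPM (68.5 to 107 CPM) beside 71.5 to 81.2 CPM in WT.

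Some members had groups that did not overlap WT. In seeds there were 5 for urt1-1, 3 for libraries labelled heso1-4 and 6 for heso1-4 urt1-1, beside 13%, 7.26% and 16.8% of all genes. In buds there were 1, 4 and 1, beside 6.91%, 8.14% and 7.99%. The members with the smallest unadjusted p among these are given next, and none passed the adjusted threshold.

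SMZ in seeds read 4.55, 6.42 and 5.53 CPM in WT, 2.56, 4.52 and 4.29 CPM in urt1-1, 5.17, 4.98 and 5.19 CPM in libraries labelled heso1-4, and 4.05, 3.48 and 4.16 CPM in those labelled heso1-4 urt1-1. Both groups with urt1-1 lay below WT, by a narrow margin for urt1-1, while heso1-4 lay inside the WT range. The log2 fold changes were -0.54 ± 0.23 in urt1-1 (edgeR adjusted p = 0.664) and -0.52 ± 0.23 in heso1-4 urt1-1 (edgeR adjusted p = 0.555).

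TOE2 in seeds read 2.50, 2.20 and 2.37 CPM in WT, 3.23, 3.60 and 2.84 CPM in urt1-1, 3.34, 3.02 and 2.68 CPM in heso1-4 and 3.73, 3.48 and 2.27 CPM in heso1-4 urt1-1. The groups with 1 insertion lay above WT and the heso1-4 urt1-1 group overlapped it, with 0.45 ± 0.25 in urt1-1 (edgeR adjusted p = 0.757). TOE2 and SMZ, both miR172 targets, thus had values of opposite sign.

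ARF2 in seeds read 336, 334 and 340 CPM in WT, 363, 349 and 375 CPM in urt1-1, 318, 313 and 250 CPM in heso1-4 and 336, 376 and 375 CPM in heso1-4 urt1-1. The libraries labelled heso1-4 lay below WT, at -0.21 ± 0.11 (edgeR adjusted p = 1.00), and urt1-1 above it. AFB2 in seeds read 35.5, 32.2 and 26.0 CPM in WT, 43.0, 41.9 and 34.2 CPM in urt1-1, 35.8, 36.2 and 37.8 CPM in heso1-4 and 41.4, 37.4 and 34.4 CPM in heso1-4 urt1-1. Only the heso1-4 group cleared WT, by a narrow margin, at 0.22 ± 0.13 (edgeR adjusted p = 1.00).

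PHO2 in seeds read 679, 660 and 882 CPM in WT, 508, 564 and 708 CPM in urt1-1, 700, 622 and 514 CPM in heso1-4 and 536, 580 and 607 CPM in heso1-4 urt1-1. The heso1-4 urt1-1 group lay below WT and the groups with 1 insertion overlapped it, with values of -0.33 ± 0.16, -0.28 ± 0.16 and -0.38 ± 0.16 (edgeR adjusted p = 0.530 for the last). GRF7 in seeds had the most negative value, -0.81 in heso1-4 urt1-1 with a 95% interval of -1.51 to -0.12 before adjustment. Its WT libraries read 4.55, 3.97 and 9.71 CPM and overlapped the 2.53, 3.51 and 4.36 CPM of the libraries labelled heso1-4 urt1-1.

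**Figure D5:**
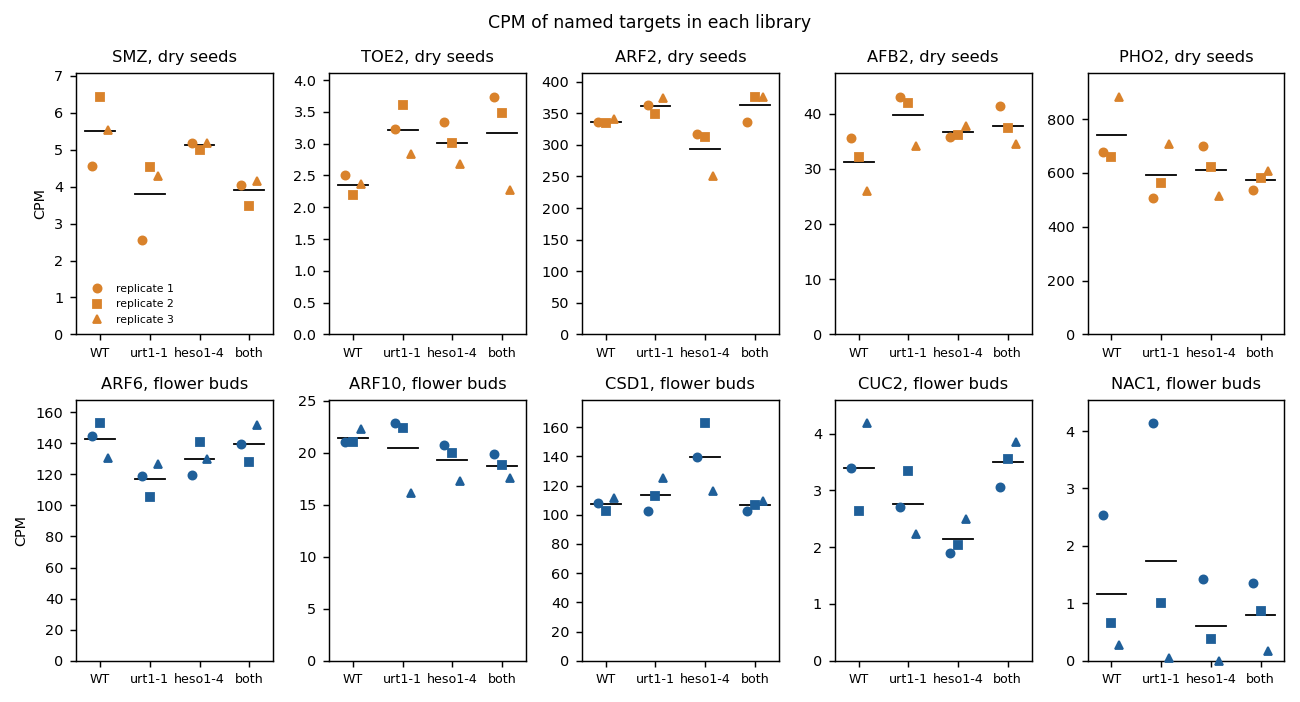
CPM of named members in each library (points, 3 per genotype with a symbol per replicate number; black lines, means; upper row dry seeds, lower row flower buds; "both" is heso1-4 urt1-1). The groups of SMZ with urt1-1 lie just below WT, CSD1 is above WT in libraries labelled heso1-4, and NAC1 has its highest point in replicate 1 of each genotype.

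In buds, ARF6 read 145, 153 and 130 CPM in WT, 119, 105 and 126 CPM in urt1-1, 119, 141 and 130 CPM in heso1-4 and 139, 128 and 152 CPM in heso1-4 urt1-1. All urt1-1 libraries lay below WT, at -0.27 ± 0.12 (edgeR adjusted p = 1.00), and the heso1-4 urt1-1 group overlapped WT. ARF10 read 21.0, 21.0 and 22.3 CPM in WT, 22.8, 22.4 and 16.2 CPM in urt1-1, 20.8, 20.0 and 17.3 CPM in heso1-4 and 19.9, 18.8 and 17.6 CPM in heso1-4 urt1-1. Both groups labelled heso1-4 lay below WT, at -0.18 ± 0.13 in heso1-4 urt1-1 (edgeR adjusted p = 1.00).

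CSD1 in buds read 108, 103 and 111 CPM in WT, 103, 113 and 125 CPM in urt1-1, 140, 163 and 116 CPM in heso1-4 and 103, 107 and 109 CPM in heso1-4 urt1-1. The heso1-4 group lay above WT, at 0.39 ± 0.13 (edgeR adjusted p = 1.00), while heso1-4 urt1-1 overlapped WT. CUC2 in buds read 3.40, 2.63 and 4.18 CPM in WT, 2.70, 3.34 and 2.23 CPM in urt1-1, 1.90, 2.05 and 2.50 CPM in heso1-4 and 3.07, 3.55 and 3.86 CPM in heso1-4 urt1-1. The heso1-4 group lay below WT at -0.65 ± 0.23 (edgeR adjusted p = 1.00), and again heso1-4 urt1-1 overlapped it.

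For libraries labelled heso1-4 urt1-1 against those of 1 insertion, 0.039% of genes passed in seeds against urt1-1 and 0.0725% against heso1-4, and 0.0131% in buds against either. No member passed in edgeR, and 2, 3, 1 and 2 members had an unadjusted p under 0.05 in these comparisons, beside 1.27%, 10.6%, 1.39% and 2.82% of all genes. Groups did not overlap for 1, 7, 4 and 4 members, beside 6.32%, 16.2%, 4.7% and 8.13% of genes. PHV, at 0.39 against urt1-1 in seeds, and ARF2 and ARF4, at 0.30 and 0.34 against libraries labelled heso1-4 in seeds, were among them. Departure from additivity of both insertions was called for 0.0111% of genes in seeds and 0.00438% in buds, and for 0 members. Unadjusted p was under 0.05 for 0 members in seeds and for 4 in buds, beside 2.05% and 1.91% of genes. The bud members were CUC2 at 1.00 ± 0.33, GRF2 at 0.63, CSD1 at -0.49 and ARF6 at 0.38. For ARF6, CUC2 and CSD1 these values go with heso1-4 urt1-1 libraries that overlap the WT range.

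The effects of the insertions were also compared between the tissues. The difference was called for 0% of genes for urt1-1 and 0.00425% for each of heso1-4 and heso1-4 urt1-1, and for 0 members in edgeR and DESeq2. Unadjusted p was under 0.05 for 3, 0 and 1 members, beside 5.48%, 4.31% and 5.79% of genes. The urt1-1 members were GRF2 at 0.88 ± 0.29, TOE2 at 0.68 and AFB2 at 0.42, each higher relative to WT in seeds than in buds.

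The families were also read as groups. In bud libraries of urt1-1 all 5 targets of miR165 and miR166 had negative values, with a median of -0.13 and a range from -0.20 to -0.09, beside 31 negative values among the 42 members. In seed libraries all 4 miR393 targets had positive values in each mutant, with medians of 0.21, 0.15 and 0.07, beside 26, 21 and 23 positive values among the 37 members. These 3 comparisons share the WT libraries. None of these members passed in edgeR, and members of a family are not replicates. Of the 12 families only these cases, with members of one sign, are given here, so the shared sign is not read as a family result. Relatives, further targets, small RNA pathway genes and precursor genes also had 0 calls in edgeR in every genotype comparison. DESeq2 called 1 relative, lower, in the difference of the heso1-4 urt1-1 effect between the tissues (DESeq2 adjusted p = 0.0396).

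Replicates spread unequally among members. In groups where a member reached 1 CPM, the median coefficient of variation was 10.4% to 15.7% in seeds and 9.90% to 13.6% in buds. NAC1 was the most variable in WT buds. It read 2.54, 0.664 and 0.270 CPM in WT, 4.14, 1.01 and 0.0506 CPM in urt1-1, 1.42, 0.382 and 0 CPM in heso1-4 and 1.35, 0.869 and 0.171 CPM in heso1-4 urt1-1. In all 4 genotypes the library numbered 1 was highest and that numbered 3 lowest. The pollen gene VGD1 had the same order, with 840, 486 and 288 CPM in WT, 784, 572 and 258 CPM in urt1-1, 480, 412 and 238 CPM in heso1-4 and 508, 400 and 299 CPM in heso1-4 urt1-1. The summed tapetum genes A9 and AMS read 21.7 to 149 CPM and did not have this order. The part of pollen content in the values of NAC1 was not tested.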

How the data were processed

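Raw counts per gene were deposited in a table for each tissue, with 12 libraries each. Per the submitters' processing notes, HISAT2 2.2.1, featureCounts 2.0.6 and TAIR10 were used. Per the file headers, counting was reverse-stranded over whole gene spans, introns included, and a read overlapping several genes counted for each. Whether these are reads or pairs is not stated by the header, and low counts were even in 66.7% to 77.2% of cases per library, so halved counts were also tried. Counting over spans adds intronic RNA, and levels per kilobase of span are lower for long introns. No member overlaps another gene on its strand.

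Groups and replicate numbers came from the labels. Libraries within a group differed beyond counting noise (chi-square per degree of freedom 17.0 to 266). Differences were tested by edgeR 4.0.16 under R 4.3.3 (filterByExpr, minimum count 10 and minimum total 15, TMM, robust quasi-likelihood, prior count 0.125, Benjamini-Hochberg at 0.05 over all genes tested), with 12 libraries per tissue fit and 24 for contrasts between tissues. SE is the log2 fold change over the square root of its F value. CPM use TMM-scaled sizes of the 24 libraries. Alternatives were DESeq2 1.42.0, RLE size factors, no filter, halved counts, no organellar genes, only the groups compared, a replicate block, and leaving out each replicate. Upper quartile size factors were added after the data were seen, for the WT tissue comparison alone. The scripts were tested on simulated data. Figures used matplotlib 3.10.9.

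Of 33243 gene IDs, 33055 had the same start and end in the reference annotation, so coordinates are of TAIR10. All 42 members are named. Values in every library are given for members called in a genotype comparison, for up to 2 members per comparison with WT with the smallest p among those whose groups do not overlap, for 1 member per family with the highest mean CPM per kilobase, and for up to 6 called members per direction between the tissues. NAC1 and GRF7 were added after their values were seen. The members and lists were chosen with earlier results of these data known. By rule, same-numbered libraries count as paired where every correlation of their deviations exceeds 0.1. This held in 8 of 10 comparisons within a tissue (lowest 0.103) and not for heso1-4 urt1-1 against WT in seeds (0.0870) or buds (0.0408). The main tests did not use this pairing, also where the rule held, and the replicate block was run as an alternative for every comparison.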

Additional observations from a re-analysis of the deposited data

How the results depend on the processing

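All 15 genotype comparisons kept 0 members called under each alternative run for them, leaving out each replicate in turn included. Upper quartile size factors were run for the WT tissues alone, and the fit of only the groups compared was not run for additivity. The replicate block changed no member's call there, while calls over all genes rose to 90 for urt1-1 and 206 for heso1-4 urt1-1 against WT in seeds, and to 205 for heso1-4 urt1-1 against heso1-4 in seeds. Between WT tissues the count of members called was 37, with 36 to 37 when a replicate was left out, 36 to 38 over all alternatives and 38 with the block. With a replicate left out ARF10 ranged from -0.0511 to 0.0016, and it changed sign without WT bud replicate 3. ARF2 was not called in 11 settings (0.12 to 0.26, edgeR or DESeq2 adjusted p from 0.0697 to 0.285). ARF17 was called lower in 4 settings (-0.42 to -0.39), NAC1 with the block (-3.11) and GRF7 with the block (0.87) or without WT bud replicate 3 (1.09). The cause was not tested. The median of all genes moved from -0.46 to -0.69 over scalings and filters. Within a family, the leading member per kilobase differed with spliced length for miR160 and miR167 in buds and for miR319 in both tissues. Low counts limit AP2, CUC1, CUC2, NAC1 and HAM3 in seeds and SNZ in buds, for which counting intervals are given.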

Other observations

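Precursor genes of the small RNAs were read as values. Of 48 precursor genes of these miRNAs and TAS3, 19 had enough counts to be tested between WT tissues, and edgeR called 15 lower and 0 higher in seeds, beside 47.7% of all genes called lower. Many precursor genes had 0 or few counts in seeds, such as MIR396a and MIR396b with 0 in WT seeds. Genes of this kind can pass the filter only through bud counts and can then only be called lower, so the share is not a result about precursors. The number called lower was 7 of 9 tested with counts halved and 9 of 10 with only the groups compared. TAS3 (AT3G17185) read 2.24, 2.33 and 2.26 CPM in WT seeds and 4.27, 3.07 and 3.71 CPM in buds and was not called. Precursor RNA in total RNA libraries does not give the level of the mature small RNA.

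In buds, 11 of 40 members with at least 1 CPM had the same replicate number highest or lowest in all 4 genotypes, a share of 27.5% beside 35.8% of all genes. In seeds 11 of 35 did, a share of 31.4% beside 26.3%.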
